A study of Mus musculus with 1111 samples.

Results

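The mitochondrial ribosomal proteins are the nuclear-encoded proteins that build the ribosome inside mitochondria. The genes were taken by symbol, as Mrpl (large subunit) or Mrps (small subunit) followed by a number, which gave 78 genes of the 35583 in the tables, 49 Mrpl and 29 Mrps. All 78 are annotated as protein coding and lie on 17 chromosomes of the mouse genome (GRCm38). The cells were single microglia, the resident macrophages of the brain, from 3-month-old mice of a strain and genotype not given in the sources used here. All groups came from mice that had received plasma proteins carrying the fluorescent dye NHS-Atto647N 20 hours earlier. The cells were sorted by their own plasma signal into 3 groups labelled plasma none, low and high (called none, low and high in what follows), so the controls are cells of injected mice sorted as having no plasma signal. Each cell was sequenced as its own Smart-seq2 library, a full-length method without molecular identifiers.

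A TH number from 1 to 3, of unstated meaning, is part of each cell's label, beside its well. No label names an animal, so each group is 1 sample of cells, no test between groups was possible, and no p-value is given. Errors are the SD over the 3 TH numbers (n = 3) and do not measure how animals vary. The groups also held different plate columns (1 to 8 for the none group, 9 to 16 for the low group, 17 to 24 for the high group), so plate column and plasma group cannot be told apart. Of 1045 cells with values, 987 passed, which were divided into 35.1% none, 35.6% low and 29.4% high cells (290 in the last). The median depth was 175699 to 404743 reads per cell by group and TH number, and within each TH number it was highest in the high group. The 7 microglia markers used, P2ry12 and Tmem119 among them, summed to 32709 ± 1345 CPM (read counts scaled to library depth) in the none group, 32132 ± 2854 in the low group and 31160.2 ± 2144 in the high group. The neutrophil and lymphocyte markers were all at 0, and the 4 oligodendrocyte markers, 1 of them at 0, summed to 20.3 to 83.4 CPM over the 9 sums. Their means were 49.1 ± 24.6 CPM in the none group, 45.96 ± 22.2 in the low group and 73.8 ± 15.4 in the high group, higher in high than in none in 3 of 3 TH numbers (log2 ratios 0.27, 0.50 and 1.36). The border-associated macrophage markers stood at 0.66 ± 0.59, 9.89 ± 10.7 and 2.29 ± 2.25 CPM in none, low and high. They were higher in low than in none in 3 of 3 TH numbers. The neuron markers stood at 0.23 ± 0.36, 0.77 ± 1.34 and 19.4 ± 33.4 CPM, with 57.98 CPM in high cells of TH number 2. The endothelial markers ran from 4.68 to 26.1 CPM. Monocyte, astrocyte and red cell markers reached at most 8.42, 20.8 and 2.89 CPM. The part of all these markers in the results was not tested.

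Mitochondria keep a small genome of their own, which encodes core subunits of the respiratory chain. The mitochondrial ribosome translates these few messages, and its RNA comes from the mitochondrial genome while its proteins are encoded in the nucleus, made in the cytosol and imported. Microglia depend on respiratory metabolism for surveillance and switch metabolic programs on activation. Some names do not match the place of the protein. Mrps30 and Mrps18a, for example, are known to sit in the large subunit, and membership here rests on the symbol alone.

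The summed level of the members overlapped between the groups. With reads of all passing cells of a group summed within each TH number, the 78 members together took 2767, 2191 and 1988 CPM in the none group for TH numbers 1, 2 and 3. In the low group they took 2593, 2404 and 2153 CPM, and in the high group 2494, 2304 and 2046 CPM. TH number 1 was highest and TH number 3 lowest in all 3 groups, and the ranges of the groups overlapped. The means were 2315 ± 404.5, 2383 ± 220.6 and 2282 ± 224.8 CPM. Taken within TH numbers, the log2 ratio of the sum was -0.01 ± 0.12 for high against none, 0.05 ± 0.13 for low against none and -0.06 ± 0.01 for high against low. The last was negative in 3 of 3 TH numbers (-0.06, -0.06 and -0.07). Pooled over TH numbers and without TMM scaling, members took 2297 CPM in the none group (exact 95% Poisson interval 2286 to 2307), 2375 in the low group (2366 to 2385) and 2256 in the high group (2247 to 2265). These intervals cover counting error of amplified reads only and are far narrower than the spread over TH numbers.

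Summed by subunit as the names give it, with Mrps30 and Mrps18a counted as small, the groups overlapped as well. The large subunit members summed to 1533 ± 276.1 CPM in the none group, 1556 ± 131.3 in the low group and 1489 ± 140.7 in the high group. The small subunit members summed to 783 ± 130, 827 ± 105.8 and 792 ± 84.2 CPM. For high against none the log2 ratio was -0.03 ± 0.14 for the large and 0.03 ± 0.09 for the small subunit.

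**Figure D1:**
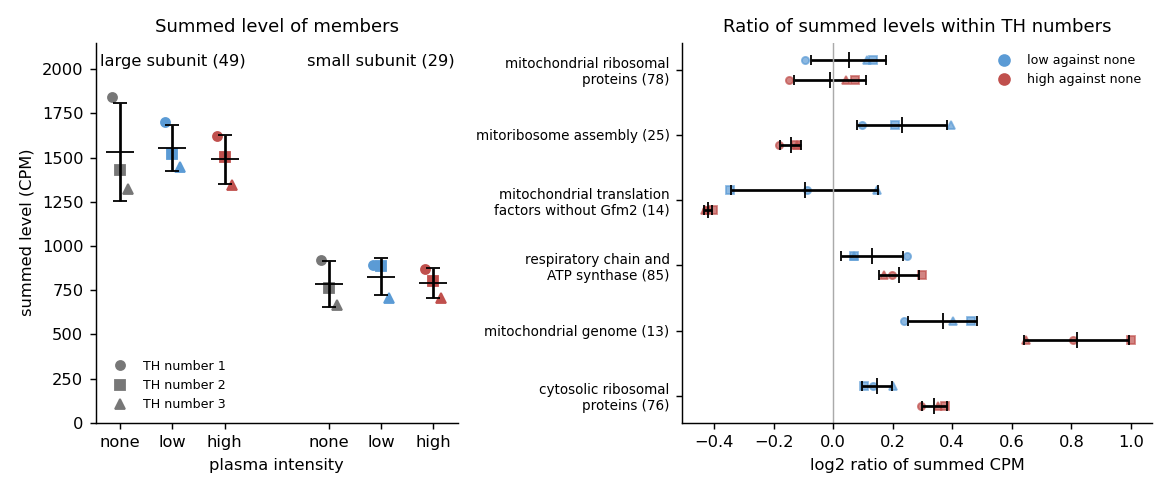
Left, summed CPM of the large subunit (49 genes) and small subunit (29 genes) members, split by name, by plasma group, with 1 symbol per TH number and bars for mean and SD. Right, log2 ratio of summed CPM against the none group for the members and 5 related gene lists, the translation factors among them drawn without Gfm2. Symbols stand for TH numbers and bars for mean and SD over the 3. The members lie around 0 in both ratios, while the mitochondrial genome and the cytosolic ribosomal proteins lie above 0 in every TH number.

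Lists of related genes are given beside the members. The 13 protein-coding genes of the mitochondrial genome, the products of which this ribosome translates, were higher in the high group than in the none group by 0.82 ± 0.18 (log2 of the summed CPM), and higher in the low group by 0.37 ± 0.12. Beside this, the median share of reads from the mitochondrial genome per cell was 0.55% to 0.66% in the none group and 0.75% to 1.15% in the high group. The 76 cytosolic ribosomal proteins, the counterpart that translates nuclear messages, were higher in the high group by 0.34 ± 0.04. The 85 nuclear-encoded subunits of the respiratory chain and ATP synthase, which join the mitochondrially made subunits, were higher by 0.22 ± 0.07. Each of these 3 log2 ratios was positive in 3 of 3 TH numbers, whereas the ratio of the members was -0.15, 0.07 and 0.04 in TH numbers 1, 2 and 3. The difference between the lists was not tested.

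Genes that assemble, run or feed the mitochondrial ribosome are given next. The 25 assembly and rRNA modification factors summed to a log2 ratio of -0.14 ± 0.03 in high against none and 0.23 ± 0.15 in low against none. Of the 25, 0 were higher and 7 lower in all TH numbers in the high group (0% and 28%, beside 15.3% and 14% of all genes). Among those of at least 20 CPM, Eral1, a GTPase of small subunit assembly, had the highest mean ratio (0.90 ± 2.07, with mixed signs). Rpusd4, a pseudouridine synthase that acts on the large rRNA, had the lowest (-1.05 ± 0.35, lower in all TH numbers). Of the 15 translation factors, 1 was higher in all TH numbers and 4 lower (6.67% and 26.7%, beside the same 15.3% and 14%). Mtif2, the initiation factor, was lowest at -1.19 ± 0.42, and the highest mean ratio was that of Lrpprc, which stabilises mitochondrial mRNAs, at 1.26 ± 2.39 with mixed signs. Gfm2 made up most of the summed CPM of this list. The list was fixed with Gfm2 in it. With it, the 15 summed to a log2 ratio of 0.06 ± 0.13 in high against none, with mixed signs (-0.07, 0.19 and 0.06). Without Gfm2, which was at 4634 CPM with reads in 100% of cells, the other 14 translation factors summed to -0.42 ± 0.01.

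The 8 genes of mitochondrial transcription and replication summed to -0.42 ± 0.17 in high against none. Of these, 0 were higher and 4 lower in all TH numbers (0% and 50%, beside 15.3% and 14% of all genes). Polg2, the accessory subunit of the mitochondrial DNA polymerase, stood at -2.26 ± 0.98, and the catalytic subunit Polg at 0.09 ± 0.33 with mixed signs. The 5 further proteins of the ribosome with other names spread around 0, from Gadd45gip1 at -0.41 ± 0.12, lower in all TH numbers, to Aurkaip1 at 0.53 ± 0.82. The shares of all genes are those over genes of at least 5 CPM, which also stand beside the members' own counts below. These lists are small, and their difference from all genes was not tested.

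Member by member, the ratios centred near 0. The median log2 ratio (CPM + 1) over the 78 members was 0.06 for high against none, beside 0.03 over all 10445 genes of at least 5 CPM. For low against none the members' median was 0.08, beside 0.03 over all genes, and for high against low it was -0.06, beside -0.01. In high against none, 12 members were higher in 3 of 3 TH numbers (15.4%, beside 15.3% of all genes) and 9 were lower (11.5%, beside 14% of all genes). In low against none, 11 members were higher (background 14.4%) and 3 lower (background 12.1%). In high against low, 6 members were higher (background 12.3%) and 12 lower (background 13%). These shares are near the background, apart from fewer lower members in low against none and fewer higher members in high against low. The 3 comparisons share groups and are not independent.

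**Figure D2:**
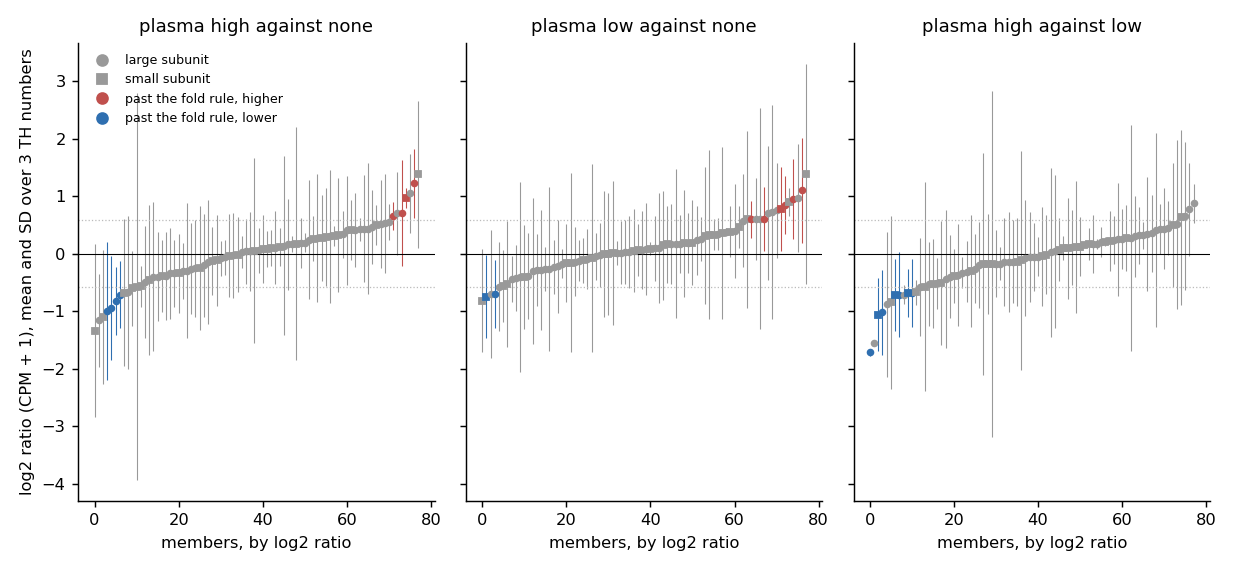
Log2 ratios (CPM + 1) of all 78 members in the 3 comparisons, sorted within each panel, as mean and SD over the 3 TH numbers; circles are large and squares small subunit members, and the dotted lines mark 0.58 on either side of 0. Coloured points pass the fold rule, 4 higher and 4 lower for high against none, 6 and 2 for low against none, and 0 and 7 for high against low.

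A member was counted past the fold rule when its mean log2 ratio was 0.58 (1.5-fold) or more above or below 0, with the same sign in 3 of 3 TH numbers and a mean of at least 20 CPM, a level that 56 of the 78 members reached. In high against none 4 members were higher (background 9.28% of 6951 genes) and 4 lower (background 8.21%). The 4 of 56 in each direction make up a share near the background.

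Mrpl51 (chr6:125191801-125196269), a protein of the large subunit found only in mitochondria, stood at 31.7, 8.83 and 7.76 CPM in the none group for TH numbers 1 to 3, at 30.3, 21.9 and 28.7 in the low group and at 54.4, 18.9 and 31.7 in the high group. The groups overlapped, with the none value of TH number 1 above every low value. Its log2 ratio in high against none was 1.23 ± 0.60, and in the high group 34.7% of its reads came from 1 cell. Mrps10 (chr17:47368887-47381417), the counterpart of bacterial S10, stood at 2.26, 25.95 and 26.04 CPM in the none group, 11.8, 13.5 and 24.6 in the low group and 4.98, 48.5 and 59.7 in the high group. TH number 1 was low in every group, and within TH numbers the ratio was 0.97 ± 0.17. Mrpl28 (chr17:26123500-26126613) stood at 16.3, 10.1 and 13.7 CPM in the none group, 25.5, 28.9 and 19.8 in the low group and 27.9, 13.5 and 25.3 in the high group. All 3 low values lay above all 3 none values, and the ratio in high against none was 0.65 ± 0.24. Mrpl36, the counterpart of bacterial L36, was at 0.71 ± 0.93 in high against none (1.78, 0.10 and 0.25 in TH numbers 1 to 3). Leaving out 1 TH number gave 0.18 to 1.01, and in the high group 1 cell gave 38% of its reads.

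Of the members that were lower, Mrpl3 (chr9:105053239-105079888), the counterpart of bacterial L3 near the catalytic centre, stood at 94.7, 23.6 and 27.1 CPM in the none group. It stood at 61.9, 74.9 and 59.6 CPM in the low group and at 17.9, 23.4 and 16.9 CPM in the high group. All low values lay above all high values. The ratio was -1.0 ± 1.2 against the none group, with 32.3% of the reads in the none group from 1 cell, and -1.71 ± 0.06 against the low group, the largest mean ratio in size of any member past the fold rule in the 3 comparisons. Mrpl15 (-0.94 ± 0.91), Mrpl35 (-0.82 ± 0.60) and Mrpl41 (-0.71 ± 0.58) were the other lower members in high against none. When the cell with the most reads of each gene was left out of each sum, 3 of the 8 members remained past the rule, Mrpl3, Mrpl15 and Mrpl41, all lower. In that setting 36 instead of 56 members reached 20 CPM. Of the 5 others, Mrpl28 (0.93), Mrps10 (0.91), Mrpl51 (0.79) and Mrpl35 (-0.75) still had mean ratios beyond 0.58 in size, and Mrpl36 was at 0.20. When each cell weighed the same, 2 of the 8 remained, Mrpl28 and Mrps10, both higher, and no member was past the rule in the lower direction.

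In low against none 6 members were past the rule in the higher direction (background 6.47%) and 2 in the lower (background 5.44%). The higher ones were Mrpl36 (1.11 ± 0.91), Mrpl48 (0.95 ± 0.70), Mrpl28 (0.85 ± 0.51), Mrps30 (0.77 ± 0.73), Mrpl58 (0.61 ± 0.56) and Mrpl39 (0.60 ± 0.32). Mrpl58 is a peptidyl-tRNA hydrolase built into the large subunit that can free stalled chains. Its values were 24.3, 12.98 and 20.3 CPM in the none group and 26.5, 31.6 and 28.9 in the low group, with no overlap between these groups. The lower ones were Mrps27 (-0.75 ± 0.72), which turned to 0.06 when each cell weighed the same, and Mrpl24 (-0.70 ± 0.60), the counterpart of bacterial L24 at the exit tunnel. In high against low 0 members were past the rule in the higher direction (background 5.9%) and 7 in the lower (background 6.57%). After Mrpl3 the lower ones were Mrps25 (-1.06 ± 0.64), Mrpl55 (-1.02 ± 0.75), Mrps15 (-0.72 ± 0.62), Mrpl15 (-0.72 ± 0.74), Mrps30 (-0.69 ± 0.42) and Mrpl22 (-0.68 ± 0.59), the counterpart of bacterial L22 in the exit tunnel. Here Mrpl3 and Mrps25 were past the rule under 13 of 13 settings tried, Mrpl55 under 12, Mrps15 and Mrps30 under 11, and Mrpl15 and Mrpl22 under 10. In the other comparisons the members past the rule were so under 7 (Mrpl39) to 12 of the 13. Named by rank though short of the fold rule, Mrpl58 (0.55 ± 0.32), Mrps34 (0.50 ± 0.34) and Mrps15 (-0.57 ± 0.36) had the same sign in all TH numbers in high against none. The 3 counterparts of bacterial S18 were not past the rule either. In the same comparison Mrps18a was at 0.11 ± 0.33, Mrps18b at 0.29 ± 0.86 and Mrps18c at 0.08 ± 0.59. All 78 members had reads, so no member was without a value.

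Levels differed widely between members. Mean CPM over the 9 sums ran from 5.31 for Mrps6 to 75.2 for Mrpl24, with a median of 26.7. Divided by the length of the principal transcript, the level ran from 3.30 to 75.9 CPM per kb with a median of 19.4. By this scale the highest were Mrpl52 (75.9 CPM per kb), Mrpl42 (72.4), Mrps34 (63.4), Mrpl24 (56.2), Mrpl33 (56.02), Mrps15 (46.4), Mrpl20 (44.7), Mrps18c (42.01), Mrpl30 (41.8) and Mrpl41 (38.8). The lowest were Mrps5 (3.30), Mrps35 (4.37), Mrpl19 (4.84), Mrps25 (4.87) and Mrpl1 (5.57). The order depended on the gene model. With the length of all exons joined, 4 of the 10 highest stayed among the 10 highest (Mrpl52, Mrps34, Mrpl24 and Mrpl41) and 2 of the 5 lowest stayed lowest (Mrps5 and Mrps35), while Mrpl33 moved to 3.66 CPM per kb.

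Exons of 33 members overlap those of another gene, for 28 members on the opposite strand, and the use of strand in counting is not given in the sources used here. Mrps25, for example, shares exon bases with Nr2c2, which was at 151.4 CPM. The 45 members that share no exon base summed to a log2 ratio of -0.11 ± 0.13 in high against none and -0.04 ± 0.15 in low against none. Named pseudogenes exist for 3 members (Mrpl48, Mrpl23 and Mrps36), so their counts are less certain.

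Promoters of members were searched for the letters of known activator motifs. A promoter window of 250 bases before to 50 after the start (RefSeq, GRCm38.p6) was found for 69 of the 78 members and 27025 genes in all. The core of ETS factors such as GABP, CCGGAAG, was present on either strand in 26 of 69 members (37.7%), in 9.93% of all genes and in 23.3% of the 7857 genes with a mean of at least 5 CPM here. The YY1 letters AAGATGGC were in 12 members (17.4%), beside 3.19% of all genes and 6.20% of those expressed here. The NRF1 letters GCATGCGC were in 8 members (11.6%), beside 3.05% and 6.73%. At least 1 of these 3 motifs was in 38 members (55.1%), beside 14.9% and 32.5%. The letters GGGCGG bound by SP factors were in 34 members (49.3%), 38.2% of all genes and 69.9% of those expressed. The TATA letters TATAAA were in 5 members (7.25%), beside 15.7% and 8.04%. Some of these motifs can share bases with each other, and a match is not a measured site.

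Shown here are stretches just before the start of 4 members, Mrpl52, which had reads in more cells than any other member, and the 3 members past the fold rule in some comparison that carry such letters in a stretch free of annotated exons. They are read 5′ to 3′ on the strand of the gene, with the ETS letters in capitals and, in Mrpl22, also the NRF1 letters as the second run of capitals. The stretches are chr14:54426809-54426908 for Mrpl52, chr11:115403652-115403751 for Mrpl58, chr11:58171561-58171660 for Mrpl22 and chr13:99344706-99344785 for Mrps27, all on the plus strand.
Mrpl52: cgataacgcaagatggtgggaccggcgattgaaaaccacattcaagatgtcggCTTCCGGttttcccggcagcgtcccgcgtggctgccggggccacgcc
Mrpl58: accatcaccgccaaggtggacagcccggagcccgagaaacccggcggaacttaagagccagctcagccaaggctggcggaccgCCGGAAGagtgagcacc
Mrpl22: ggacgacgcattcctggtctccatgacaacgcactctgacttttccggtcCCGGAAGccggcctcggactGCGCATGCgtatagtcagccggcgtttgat
Mrps27: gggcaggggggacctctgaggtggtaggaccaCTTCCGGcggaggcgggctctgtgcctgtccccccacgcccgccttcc
The ETS letters begin 47 bases before the start in Mrpl52, 17 in Mrpl58, 53 in Mrpl22 and 48 in Mrps27, and in Mrpl52 and Mrps27 they stand as the reverse complement. Members with the ETS letters had a median log2 ratio of 0.07 in high against none and those without it 0.10, and the ranges of the members with and without it overlapped. Their median shares of cells with a read were 11.4% and 10.7%.

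Most members were read in few cells. The median member had a read in 10.8% of the 987 cells. The share ran from 3.44% for Mrps6 to 30.3% for Mrpl52, with 35 members under 10%, 34 between 10% and 20% and 9 at 20% or more. Mrpl52 (chr14:54426909-54429756) had reads in 24.6% of none cells (exact Clopper-Pearson 95% interval 20.1% to 29.5%), 33.9% of low cells (28.96% to 39.1%) and 32.8% of high cells (27.4% to 38.5%). Mrps6 (chr16:92058270-92112227) had reads in 9 cells of the none group (2.60%, 1.20% to 4.88%), 11 of the low group (3.13%, 1.57% to 5.54%) and 14 of the high group (4.83%, 2.66% to 7.97%). These intervals cover counting error over cells only, and for both Mrpl52 and Mrps6 the 3 of them overlap.

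**Figure D3:**
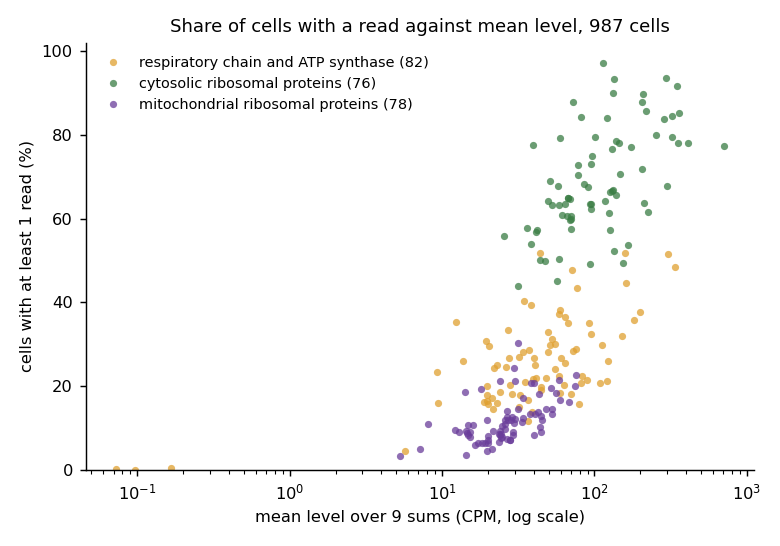
Share of the 987 cells with at least 1 read (vertical axis, %) against mean level over the 9 sums (horizontal log axis, CPM) for each gene of 3 lists; 3 of the 85 respiratory chain and ATP synthase genes at 0 are not drawn. At levels between 20 and 50 CPM, not divided by transcript length, the medians are 11.4% for members, 21.9% for respiratory chain and ATP synthase genes and 56.4% for cytosolic ribosomal proteins.

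At the same CPM the lists differed in their shares. CPM is not divided by transcript length here, and the part of length in these shares was not tested. Among genes between 20 and 50 CPM, the median share of cells with a read was 11.4% for the 47 members at that level, 9.83% for all 3256 genes, 21.9% for 34 respiratory chain and ATP synthase genes and 56.4% for 10 cytosolic ribosomal proteins. The median of the members was close to that of all genes of this level, and the cytosolic ribosomal proteins and respiratory chain genes had higher medians. In the cells that had a read of a member, the reads were many: the median member was at 222.3 CPM in such cells (30.9 to 488 over members), with a median of 48.5 reads.

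At equal depth, cells of the low group and the high group had reads from more members than cells of the none group. With each cell thinned to 50000 reads, the median number of members with a read was 8, 7 and 7 in the none group for TH numbers 1 to 3, 11, 8 and 9 in the low group and 10, 8 and 9 in the high group. Within each TH number both labelled groups lay above none. The difference of medians was 1.67 ± 0.58 members for high against none, 2 ± 1 for low against none and -0.33 ± 0.58 for high against low. Without thinning these were 2 ± 0, 2.33 ± 0.58 and -0.33 ± 0.58. For the 45 members that share no exon base the thinned differences were 0.5 ± 0.5 for high against none and 0.67 ± 0.58 for low against none, and their mean number per cell was 4.86, 3.93 and 4.04 in the none group, 6.12, 4.91 and 5.26 in the low group and 5.72, 4.55 and 4.90 in the high group. In means, cells of the high group had 21.7% ± 2.5 more members with a read than those of the none group, and cells of the low group 27.9% ± 4.9 more.

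**Figure D4:**
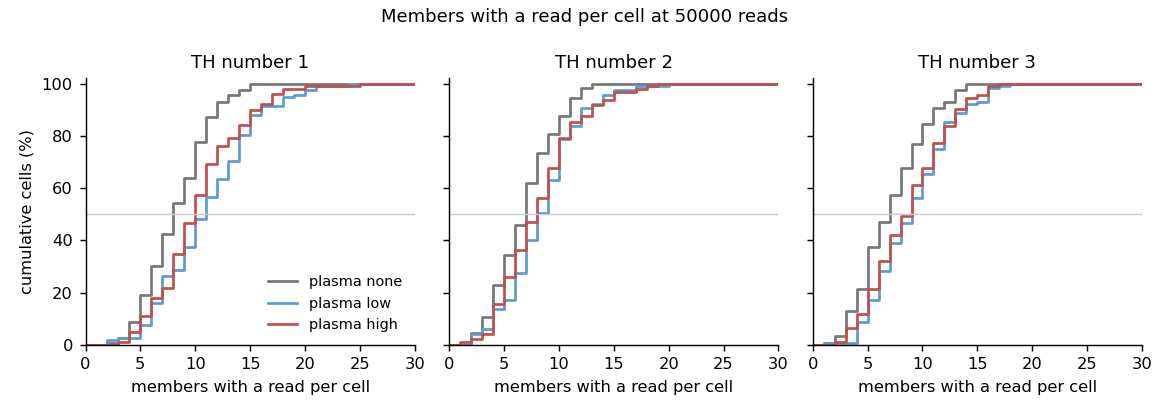
Cumulative share of cells (vertical axis, %) with up to a given number of members with a read (horizontal axis) after thinning to 50000 reads, by plasma group and TH number; the grey line marks 50% of cells. Within each TH number the curve of the none group lies above both others from 3 to 12 members and crosses 1 of them below that, with medians of 8, 7 and 7 members against 8 to 11 in the low group and the high group.

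The number of all genes per cell moved in the same direction. At 50000 reads the mean number of genes with a read was 12.9% ± 5.0 higher in the high group and 14.2% ± 7.7 higher in the low group than in the none group. Members made up 4.82 ± 0.32 of every 1000 genes with a read in the none group, 5.40 ± 0.27 in the low group and 5.19 ± 0.20 in the high group. Among the cells of a group and TH number (9 sets), members with a read and all genes with a read had Spearman correlations of 0.50 to 0.73, given as a description since both come from the same library. The correlation of members with a read with the summed reads of the mitochondrial genome was -0.19 to 0.12, and with the summed reads of cytosolic ribosomal proteins -0.33 to 0.17. The part of the number of genes per cell in the result on members was not tested.

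The share of cells with a read was higher in the high group than in the none group for 63 of the 78 members at equal depth (80.8%, beside 69.4% of all genes), and 27 were higher in 3 of 3 TH numbers (34.6%, beside 26.8% of all genes) and 3 lower (background 6.13%). For low against none 67 members had a higher share (85.9%, beside 73% of all genes), and for 29 this held in 3 of 3 TH numbers (37.2%, beside 29.1%) and 0 lower in 3 of 3 (background 5.55%). For high against low 5 were higher in 3 of 3 TH numbers (background 11.1%) and 17 lower (background 14.4%). Of the 35 members with a negative mean ratio in CPM in high against none, 23 had a higher share of cells, so the shares are given as shares of cells and not as an order of expression. The median CPM in cells with a read was taken without thinning, and depth was highest in the high group within each TH number. It was lower in the high group than in the none group for 66 of 78 members (84.6%, beside 69.9% of all genes). For 65 it was lower in the low group than in the none group (83.3%, beside 69.3%). The part of depth in these counts was not tested. The difference between members and all genes was not tested in either measure.

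**Figure D5:**
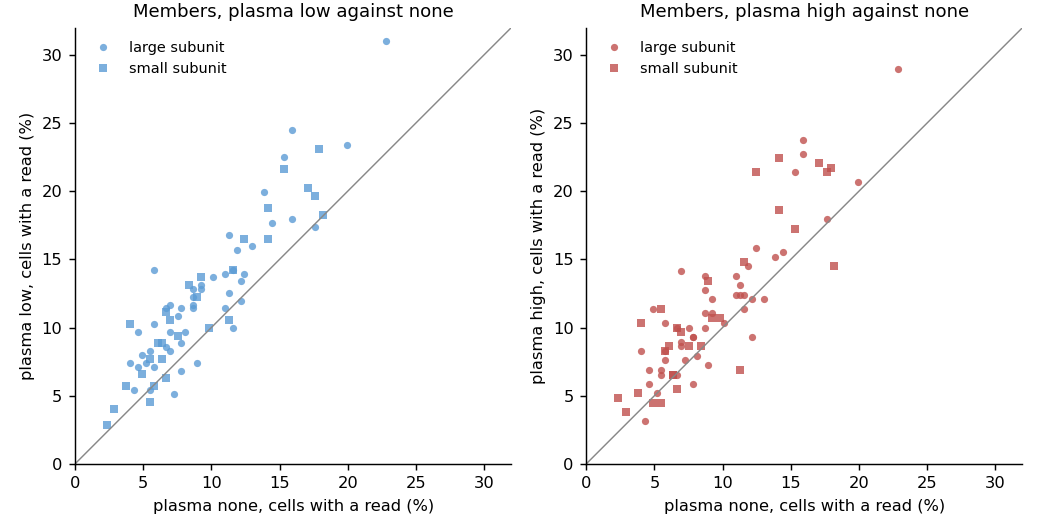
Share of cells with a read (%) of each member at 50000 reads per cell, the none group on the horizontal axis and the low group (left) or the high group (right) on the vertical axis; circles are large and squares small subunit members, and the line marks equal shares. Of the 78 members 67 lie above the line for the low group and 63 for the high group, beside 73% and 69.4% of all genes.

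The member shares behind these counts can be read from examples, chosen after their values were seen except for Mrpl28, Mrpl55, Mrpl22 and Mrps15. Mrpl28 was read in 6.03%, 3.54% and 5.13% of none cells, in 9.32%, 6.84% and 7.76% of low cells and in 13.9%, 8.33% and 11.8% of high cells for TH numbers 1 to 3. All none shares lay below all shares of the other groups, and the CPM of Mrpl28 was past the fold rule in the same direction. Mrpl47 was read in 12.9%, 15.9% and 18.8% of none cells, in 30.5%, 21.4% and 21.6% of low cells and in 30.7%, 16.7% and 23.7% of high cells. Mrps7, the counterpart of bacterial S7, was read in 14.7%, 12.4% and 10.3% of none cells and in 24.8%, 23.96% and 15.1% of high cells, which do not overlap. Both share exon bases with other genes. Mrpl55, which shares none, was read in 4.31%, 4.42% and 8.55% of none cells, 20.3%, 9.40% and 12.9% of low cells and 9.90%, 12.5% and 8.60% of high cells. The 3 members lower in all TH numbers in high against none were Mrpl22, Mrps15 and Mrps36, and Mrpl22 was read in 11.2%, 5.31% and 6.84% of none cells and in 7.92%, 3.12% and 6.45% of high cells.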

How the data were processed

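The deposited tables hold read counts per gene and cell; 1 deposited column of TH number 3 holds expected counts (2 values not whole) and was rounded. Per the submitters' processing notes bcl2fastq, Trim Galore, STAR 2.5.3a, Seurat and mm10 were used; per the file headers, alignments of TH numbers 2 and 3 were reduced to top hits, while those of TH number 1 carry no such note. The counting tool is not given in the sources used here. Of 1111 labelled cells, 1045 had a column, and 66 were not analysed here. Passing cells had at least 50000 reads and 500 genes; cells were sorted into single wells, so no doublet caller was run.

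Reads were summed by group and TH number (9 sums) and scaled to CPM with TMM factors (edgeR 4.0.16, R 4.3.3). Ratios used a pseudocount of 1 CPM, were taken within TH numbers and averaged. Cells were thinned to 50000 reads for shares of cells. Positions and lengths come from GENCODE M21, which held 35546 of the 35583 gene IDs; lengths are those of the APPRIS principal transcript. Sequences come from RefSeq. Genes were named by a fixed rule: the 10 highest and 5 lowest members per kb, the largest ratios of 1 sign in all TH numbers among members of at least 20 CPM, all members past the fold rule, the Mrps18 paralogs, and the largest riser and faller of each related list. The members and lists were chosen with earlier results of these data known. The scripts were tested on simulated data. The spread in the simulation was set and not taken from these data, so that test covers the code only. Alternatives covered scaling (library size, DESeq2 1.42.0), filters, pseudocounts, cell weighting and left-out TH numbers. Of the microglia markers, 1 is not reported here.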

Additional observations from a re-analysis of the deposited data

How the results depend on the processing

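The samples share only a TH number. Deviations of sums with the same number correlated at 0.031 to 0.090, all positive though small. Deviations of sums with different numbers correlated at -0.057 to -0.0041. Whether the numbers pair the samples is not stated in the labels, and the main ratios were formed within TH numbers as a replicate block. Without this replicate block the summed log2 ratio was -0.02 (high against none), 0.04 (low against none) and -0.06 (high against low), and the number past the fold rule was 13 and 12 in the first and last, with no condition on signs, of 56 members (beside 27.9% and 22.1% of all genes). An edgeR fit with the replicate block gave 14 in the first and 16 in low against none, of 56 (beside 29.7% and 22.4%). Of the alternative values of the main results, 30 moved beyond the limits set. The number past the fold rule in high against none was 8 of 56 (beside 17.5% of all genes), and became 5 of 36 without the top cell (16.5%), 5 of 58 with each cell weighing the same (14.9%), 14 of 78 with no filter on low values (14.1%) and 5 of 30 among members sharing no exon base (the last added after seeing the data). Without the top cell fewer members reach 20 CPM, and in high against none the members kept from the main result were all lower. With equal cells no member was past the rule in the lower direction in that comparison. In low against none it was 8 of 56 (11.9%), and became 5 of 36 (12.1%), 5 of 58 (11.3%) and, without shared exons, 2 of 30. In high against low it was 7 of 56 (12.5%), and became 11 of 78 with no filter (11.6%) and 4 of 30 without shared exons. The summed ratio of high against low was -0.10 by library size, -0.077 with stricter cells, -0.22 without the top cell and -0.075 with equal cells, and its median was -0.28 without the top cell. The median of high against none was -0.060 without shared exons. The difference in members per cell was 1 at 5 or more reads and 0.5 without shared exons for high against none, and 0.67 without shared exons for low against none. Leaving out 1 TH number gave 11 to 15, 6 to 15 and 10 to 16 members past the rule in the 3 comparisons, while the share of all genes was 25.9% to 30.8%, 21.3% to 23.98% and 22.1% to 25.4%. It gave medians of -0.025 to 0.10, 0.032 to 0.14 and -0.085 to 0.0063, sums of -0.05 to 0.06, 0.01 to 0.12 and -0.07 to -0.06, and differences per cell of 1.5 to 2, 1.5 to 2.5 and -0.5 to 0. The ratio of Mrps27 in low against none reversed to 0.060 with equal cells. Other causes were not tested.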
